A study of Mus musculus with 2 samples.

Results

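The genes described here store iron, export it, import it, sense it or break down heme. They are Fth1, Ftl1, Slc40a1, Hmox1, Blvrb, Tfrc, Slc11a1, Slc11a2, Ireb2 and Ncoa4, and they make up 10 of the 32285 genes in the matrices. They were chosen by name for their known function, with earlier results of these data known. MC38 is a colon carcinoma line of the mouse, and the matrices come from its tumours on day 21. Immune cells were sorted by flow cytometry straight from the tumours and profiled by droplet single-cell RNA sequencing (10x Genomics 3′ chemistry) in 1 group of 2 replicate libraries. The labels name no treatment, genotype, strain, sex or age, and do not say whether the replicates came from separate animals. Every SD therefore measures only how far these 2 libraries differ. The p-values of fits with the library as a block set class differences against the spread left once the library difference is taken out. Either spread may be technical.

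Cells keep spare iron inside ferritin, a hollow shell built from heavy chains (Fth1), which oxidise the iron, and light chains (Ftl1). Ncoa4 is the receptor that carries ferritin to the lysosome when iron is needed, and Slc40a1 encodes ferroportin, the exporter of iron from cells. Hmox1, heme oxygenase, opens the heme ring and frees its iron, and Blvrb encodes biliverdin reductase B. Tfrc, the transferrin receptor, brings in iron carried by transferrin. Slc11a2 moves iron out of the endosome, and Slc11a1 moves metal ions out of the phagosome of macrophages and neutrophils. Ireb2 encodes one of the iron regulatory proteins, which bind RNA stem-loops called iron responsive elements when iron is scarce. Such an element in the 5′ UTR lets the protein block translation, and elements in the 3′ UTR let it stabilise the RNA. Macrophages recycle the iron of ageing red cells, which makes storage, export and heme breakdown part of their textbook role.

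Elements of this kind were found in 4 of the 10 genes, and they are shown because iron regulatory proteins act through them after transcription, where UMI counts do not show the outcome. The pattern searched is strict: one form of Slc11a2 RNA is also known for an element in its 3′ UTR, which the search did not find. The search read annotated transcripts (GENCODE M21, GRCm38, the assembly also called mm10) on the transcript's own strand. It asked for an unpaired C, then 5 bases that pair with 5 bases on the far side of the loop CAGTGN (N is not G), with at least 4 of 6 base pairs below; G may pair with T. The capitals mark the loop, and each sequence is written 5′ to 3′ with T for U.
Fth1, 5′ UTR, chr19:9982732-9982760, plus strand: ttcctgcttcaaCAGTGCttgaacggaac
Ftl1, 5′ UTR, chr7:45459779-45459807, minus strand: gtcttgcttcaaCAGTGTttgaacggaac
Slc40a1, 5′ UTR, chr1:45925465-45925493, minus strand: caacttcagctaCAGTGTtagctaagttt
Tfrc, 3′ UTR, chr16:32631219-32631247, plus strand: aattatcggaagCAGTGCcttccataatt
Tfrc, 3′ UTR, chr16:32631598-32631626, plus strand: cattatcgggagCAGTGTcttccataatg
Tfrc, 3′ UTR, chr16:32631663-32631691, plus strand: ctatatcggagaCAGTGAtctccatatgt
Tfrc, 3′ UTR, chr16:32631710-32631738, plus strand: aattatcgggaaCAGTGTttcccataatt

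The storage and export genes carried 1 match each, in exon 1, and Tfrc carried 4, all in exon 19. Of 22500 genes with a coding transcript, 7 (0.0311%) had a match in a 5′ UTR and 12 (0.0533%) in a 3′ UTR. A 5′ UTR match was also found in Ftl1-ps1, a near copy of Ftl1. No match was found in Hmox1, Blvrb, Slc11a1, Slc11a2, Ireb2 or Ncoa4, which says only that these letters are not in those transcripts. Reads that fit both Ftl1 and Ftl1-ps1 can be split or dropped in counting, so Ftl1 values and the heavy-chain share below are uncertain by an amount not measured here. Ftl1-ps1 had 188 and 245 UMIs in replicates 1 and 2.

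Replicate 1 held 5688000 UMIs in 2749 barcodes and replicate 2 held 5862342 UMIs in 2937, with no barcode in both. After filters on detected genes, mitochondrial UMIs and doublets, 2378 and 2801 barcodes were kept, with medians of 1488.5 and 1381 UMIs. Barcodes were put in classes by UMIs of marker genes, none of them among the 10 genes. C1q macrophages (C1qa, C1qb and C1qc) numbered 1015 and 668 barcodes, monocytes 71 and 185, type 2 dendritic-like cells 48 and 21, and Cd3 T cells 38 and 89. These 4 classes held UMIs of all of their own markers in both libraries. Neutrophils (6 and 17 barcodes), type 1 dendritic cells (15 and 1), mature dendritic cells (11 and 9) and plasmacytoid dendritic cells (13 and 4) were too few for a test. The mature dendritic gate was poor in leukocyte RNA, with 0 and 1 UMIs of Ptprc and 362 and 1394 CPM over 6 leukocyte genes, against 9110 and 11150 CPM in macrophages. Fth1 stood there at 2796 and 4658 CPM, and the gate is not described further.

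The other large class had no UMI of Ptprc, which encodes CD45 of leukocytes, and none of Tyrobp, an adaptor of myeloid and natural killer cells. These Ptprc-negative barcodes numbered 700 and 997, which is 29.4% and 35.6% of kept barcodes of samples labelled as immune cells. Their RNA of 4 other leukocyte genes (Laptm5, Coro1a, Cd52 and Fcer1g) stood at 318 and 222 CPM, against 6943 and 8296 CPM in the macrophages. CPM is a gene's UMI count in a class, scaled so that every class of each library has the same total. The gate also carries the working name tumour-like, but of 5 epithelial genes (Krt8, Krt18, Krt19, Epcam and Cldn7) it held 0 and 4 UMIs, so it is called here by its rule. All 5 fibroblast genes listed (Col1a1, Col1a2, Col3a1, Dcn and Pdgfrb) were detected and summed to 1386 and 1493 CPM there, against 105.5 and 80.5 CPM in the macrophages. Red cell RNA was near 0: hemoglobin genes and Alas2 together had 1 and 5 UMIs in the macrophages and 1 and 31 in the Ptprc-negative barcodes.

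C1q RNA was also counted in the other classes. The summed C1q level, as a share of the macrophage level, was 3.89% and 11.2% in T cells, 2.18% and 7.77% in monocytes, 1.73% and 4.73% in type 2 dendritic-like cells and 1.30% and 0.917% in Ptprc-negative barcodes. It was 10.4% and 21.8% in the few neutrophils. Its part in the values of the 10 genes was not tested, apart from the subtraction of a macrophage profile given with the closing limits.

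RNA of both ferritin chains was highest in C1q macrophages among the classes with at least 20 barcodes in each library. Fth1 lies on chromosome 19 (9980598 to 9985098, GRCm38). Macrophages held 13210 and 9782 Fth1 UMIs, or 6608 and 10098 CPM (8353 ± 2468, SD, n = 2). Monocytes followed at 4464 and 9121 CPM, then type 2 dendritic-like cells at 4137 and 4990, Ptprc-negative barcodes at 3342 and 5491 and T cells at 2002 and 5222. Within each library every one of these 4 classes was below the macrophages. Across libraries only the monocyte values overlapped with those of the macrophages. By CPM, without the TMM scaling of the fits, replicate 2 was higher than replicate 1 in all 5 classes. The order among type 2 dendritic-like cells, Ptprc-negative barcodes and T cells was not the same in both libraries.

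Ftl1 lies on chromosome 7 (45457944 to 45459884). Its level was 4226 and 4929 CPM in macrophages (4578 ± 498, SD, n = 2), 2997 and 3758 in monocytes, 1818 and 2772 in type 2 dendritic-like cells, 1352 and 2215 in Ptprc-negative barcodes and 1255 and 2151 in T cells. For this light chain the macrophage libraries did not overlap with those of any of the other 4 classes. The 6 and 17 neutrophil barcodes reached 3948 and 13695 CPM of Fth1 from only 31 and 218 UMIs, and the plasmacytoid dendritic barcodes reached 3887 and 6319 CPM from 59 and 23.

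**Figure D1:**
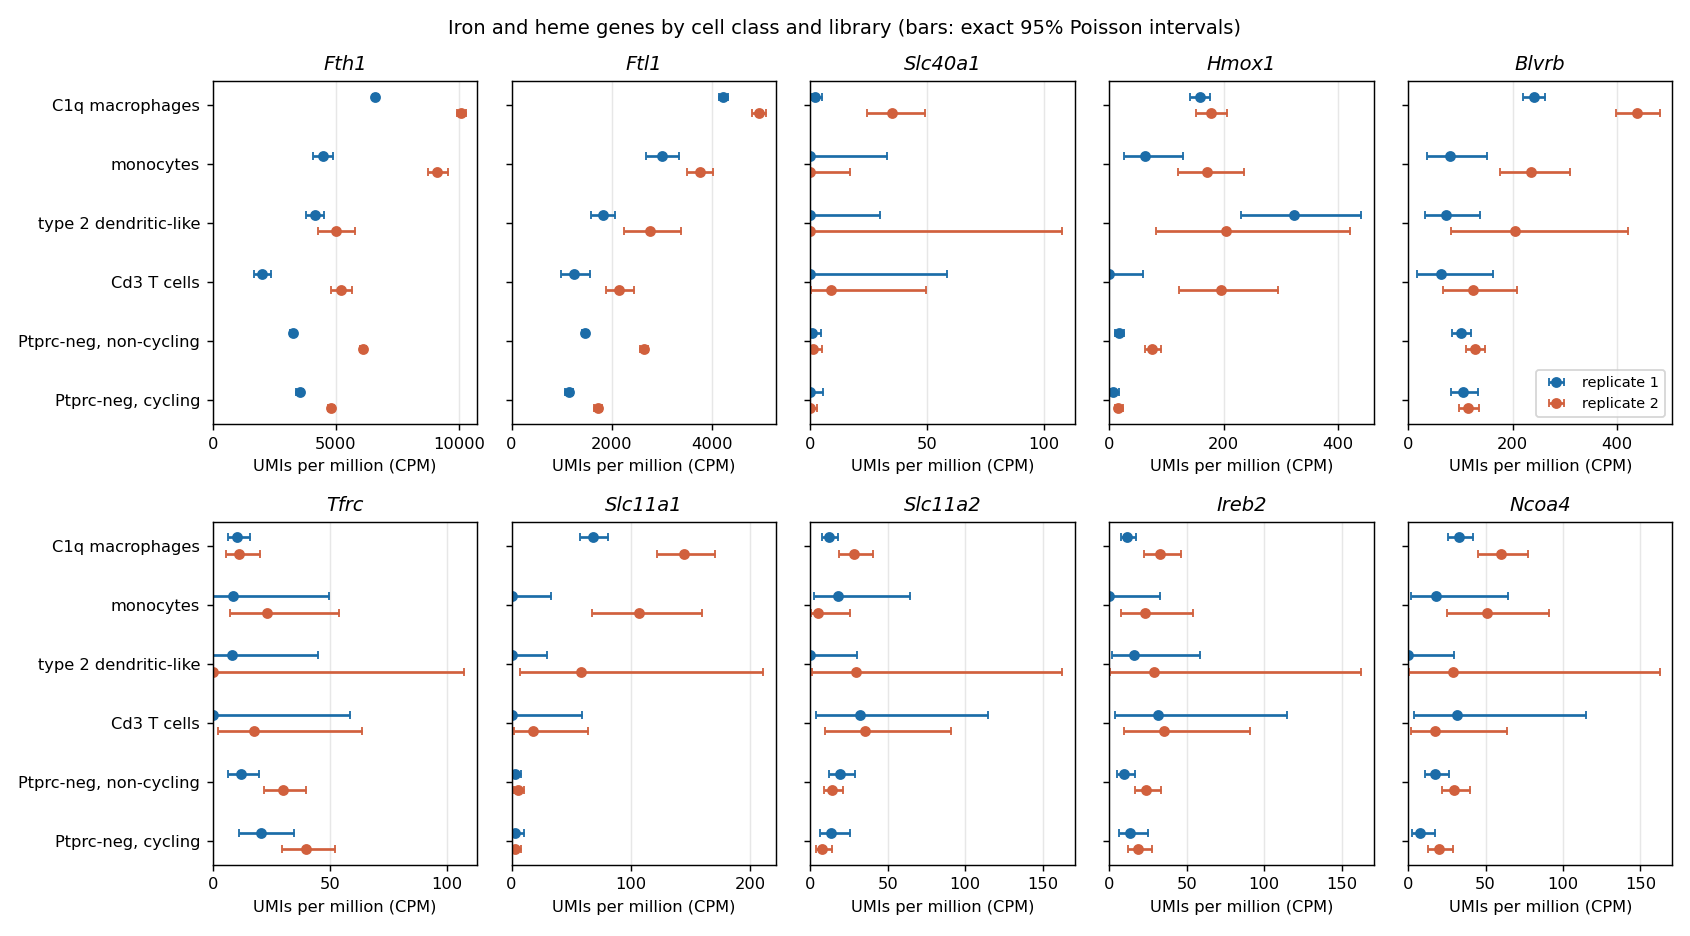
Level in CPM (scaled UMI counts) of each of the 10 genes on the horizontal axis for 6 sets of barcodes, with 1 point for each library and bars for exact 95% Poisson intervals, which cover counting error only. Fth1 sits at 6608 and 10098 CPM in C1q macrophages. Slc40a1 is near 0 in Ptprc-negative barcodes and in macrophages of replicate 1, and its intervals are wide in the smaller classes, such as 0 to 58.6 CPM in T cells of replicate 1.

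The balance of the chains differed between macrophages and Ptprc-negative barcodes within each library. Heavy-chain UMIs made up 61.0% and 67.2% of ferritin UMIs (Fth1 plus Ftl1) in macrophages (64.1% ± 4.39, SD, n = 2) and 71.2% and 71.3% in Ptprc-negative barcodes (71.2% ± 0.0372). The exact binomial intervals of the 2 classes do not overlap, with 60.3 to 61.6% and 66.4 to 68.0% in macrophages and 70.3 to 72.1% and 70.7 to 71.9% in Ptprc-negative barcodes. Those of the 2 macrophage libraries do not overlap each other either, so these intervals cannot separate a class difference from a library difference. With 2 libraries a side no permutation test can reach the threshold, so this is a description. Monocytes stood at 59.8% and 70.8% and T cells at 61.5% and 70.8%, so in these classes the libraries differed by more than the classes did. Type 2 dendritic-like cells went the other way, from 69.5% in replicate 1 to 64.3% in replicate 2. The share counts 3′ ends of 2 different RNAs and is no ratio of protein chains.

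**Figure D2:**
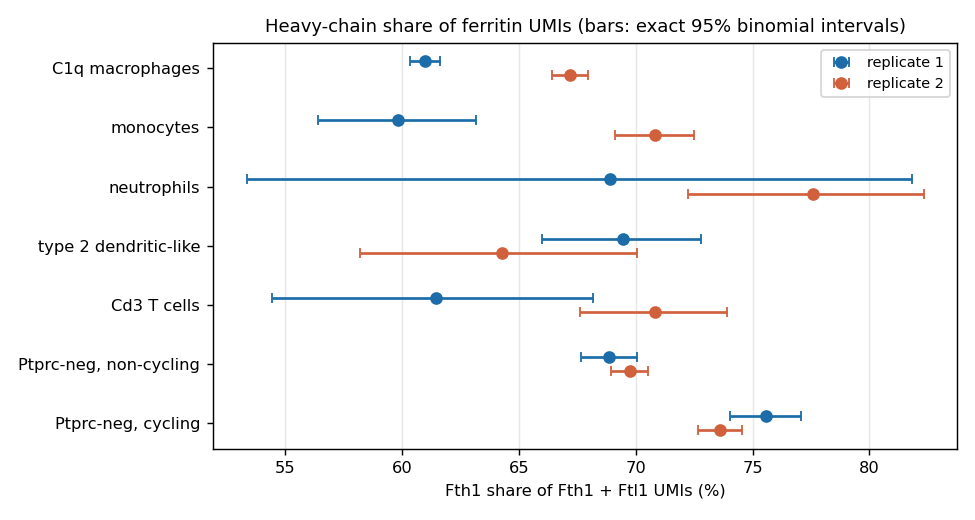
Fth1 UMIs as a percentage of Fth1 plus Ftl1 UMIs for 7 sets of barcodes, with 1 point for each library and bars for exact 95% binomial intervals. Ptprc-negative barcodes lie at 68.9% or above in both libraries, and macrophages at 61.0% and 67.2%; the axis does not start at 0.

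Ncoa4, the receptor that sends ferritin to the lysosome (chromosome 14, 32159865 to 32179855), was far rarer. It had 66 and 58 UMIs in macrophages (33.0 and 59.9 CPM) and 27 and 71 in Ptprc-negative barcodes (14.0 and 25.3 CPM). Within each library macrophages were higher, and the groups did not overlap. Monocytes had 2 and 11 UMIs and T cells 2 and 2, too few to place them in an order.

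Of the 10 genes, ferroportin RNA had the widest gap between libraries within macrophages. Slc40a1 (chromosome 1, 45908068 to 45926523) had 4 UMIs in macrophages of replicate 1 and 34 in those of replicate 2, or 2.0 CPM (exact 95% Poisson interval 0.545 to 5.12) and 35.1 CPM (24.3 to 49.0). The ratio of replicate 2 to replicate 1 was 17.5. Of 8035 genes with at least 20 UMIs in the macrophages and some in each library, 11 (0.137%) had a larger one. Genes with 0 UMIs in a library have no such ratio and were left out of this count. The 34 UMIs came from 28 of 668 barcodes and the 4 from 3 of 1015, so no single barcode carried them. This compares 1 library with 1 library and has no replicate check.

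Few other barcodes had any Slc40a1. Ptprc-negative barcodes held 1 and 2 UMIs and T cells 0 and 1, while monocytes, neutrophils and the type 1, type 2 and plasmacytoid dendritic classes held 0 in both libraries. In the 185 monocytes of replicate 2, where a count of 0 allows up to 13.9 CPM (3 UMIs), the level was under that of the macrophages of the same library. In replicate 1 the limit for monocytes, 26.7 CPM, lies above the macrophage level, so no difference was detectable there at this depth. For T cells the Poisson intervals, 0 to 58.6 and 0.224 to 49.3 CPM, reach above the macrophage level of the same library.

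The macrophages themselves were not alike in the libraries. Barcodes with more UMIs of Trem2, Fcrls and Stab1 than of Il1b, Ly6i and Clec4n numbered 643 and 60, and the opposite state, called inflammatory here, 60 and 398. In the Trem2 state Slc40a1 had 3 and 3 UMIs, or 2.07 and 34.2 CPM (intervals 0.427 to 6.05 and 7.05 to 99.9). In the inflammatory state it had 1 and 23 UMIs, or 6.76 and 37.0 CPM (intervals 0.171 to 37.7 and 23.5 to 55.5). Replicate 2 was higher within both states, but only in the Trem2 state did the intervals of the libraries not overlap. A count test between the states, with the library as a block, called none of the 5 iron and heme genes it tested (edgeR, 4 of 2404 genes called, 0.166%; 0 of the 5 at an unadjusted p under 0.05). The largest of the 5 differences was that of Hmox1, 0.57 ± 0.53 (log2, SE) higher in the Trem2 state with an adjusted p of 1. These states were drawn after their sizes were seen, because the stricter states first planned held 343 and 17 barcodes in one case and 7 and 222 in the other.

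Hmox1 and Blvrb were each higher in macrophages than in Ptprc-negative barcodes of both libraries. Hmox1 (chromosome 8, 75093621 to 75100589) had 317 and 172 UMIs in macrophages, or 159 and 178 CPM (168 ± 13.4, SD, n = 2). In Ptprc-negative barcodes it had 26 and 133 UMIs, or 13.5 and 47.4 CPM, and these libraries did not overlap with the macrophages. Monocytes held 62.2 and 171 CPM. In T cells the libraries disagreed, with 0 UMIs in 38 barcodes and 22 UMIs in 89 (195 CPM, interval 122 to 295). Those 22 UMIs were spread over 12 barcodes with at most 5 in any. The C1q level of the same T cells was 11.2% of that of macrophages, and its part in this value was not tested.

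Type 2 dendritic-like cells showed the highest Hmox1 of the tested classes, 323 and 204 CPM, but the first value rests on a single barcode. In replicate 1 that barcode held 37 of the 40 Hmox1 UMIs, and 3 of 48 barcodes had any. In replicate 2 the 7 UMIs came from 6 of 21 barcodes. The neutrophil barcodes had 1 and 7 UMIs. Plasmacytoid and type 1 dendritic barcodes had 0.

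Blvrb (chromosome 7, 27447978 to 27466144) followed the macrophages more closely. It had 480 and 425 UMIs there, or 240 and 439 CPM (339 ± 140, SD, n = 2). Ptprc-negative barcodes held 103 and 122 CPM, monocytes 80.0 and 236, type 2 dendritic-like cells 72.7 and 204 and T cells 63.5 and 124. The macrophage values did not overlap with those of any of these 4 classes, although monocytes of replicate 2 came within a few CPM of macrophages of replicate 1.

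Slc11a1, the phagosomal metal transporter (chromosome 1, 74375195 to 74386062), showed the largest difference between macrophages and Ptprc-negative barcodes of the 5 genes tested below. Macrophages had 137 and 140 UMIs, or 68.5 and 145 CPM. Ptprc-negative barcodes had 6 and 12 UMIs, or 3.12 and 4.28 CPM. Monocytes had 0 UMIs in replicate 1 (up to 26.7 CPM allowed) and 23 in replicate 2 (106 CPM), while T cells, type 2 dendritic-like cells and neutrophils each had 0 and 2. The counts of 0 allow up to 47.7, 24.2 and 382 CPM in these 3 classes, so no difference between their libraries can be read.

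The remaining import and sensing genes had few UMIs in every class but macrophages and Ptprc-negative barcodes. Tfrc (chromosome 16, 32608920 to 32632794) had 21 and 11 UMIs in macrophages (10.5 and 11.4 CPM) and 29 and 97 in Ptprc-negative barcodes (15.1 and 34.6 CPM). It was the only 1 of the 10 genes whose level was above that of macrophages in Ptprc-negative barcodes of both libraries. Slc11a2 (chromosome 15, 100387898 to 100425072) stood at 12 and 27.9 CPM in macrophages and 17.2 and 11.1 CPM in Ptprc-negative barcodes, with opposite order in the libraries. Ireb2 (chromosome 9, 54863789 to 54912530) stood at 11.5 and 33.0 CPM in macrophages and at 10.9 and 21.4 CPM in Ptprc-negative barcodes. All 3 had at most 5 UMIs in any library of monocytes, T cells or type 2 dendritic-like cells, so classes other than macrophages and Ptprc-negative barcodes cannot be ranked. In the smallest classes single UMIs give wide values: 2 and 1 Tfrc UMIs in plasmacytoid dendritic barcodes are 132 and 275 CPM, with intervals of 16.0 to 476 and 6.96 to 1531 CPM.

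Raw UMIs were summed for each class and library, and the 10 sums of the 5 classes with at least 20 barcodes in both libraries were fitted with edgeR, with the library as a block and 1 shared estimate of the spread. Of the 10 genes, 5 passed the filter on low counts: Fth1, Ftl1, Hmox1, Blvrb and Slc11a1. The other 5 did not reach its cutoff, a CPM level set by the median size of the 10 sums, small classes included. The filter reads all 10 sums, so a gene can pass through the classes where it is high. Slc11a1, at 3.12 and 4.28 CPM in Ptprc-negative barcodes, and Hmox1, at 13.5 and 47.4 CPM there, passed through leukocyte classes. Tfrc, which was higher in Ptprc-negative barcodes than in macrophages, did not pass. All comparisons below use the same macrophage sums and are not independent of each other.

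In Ptprc-negative barcodes all 5 tested genes were lower than in macrophages, where 27.4% of 2769 genes were called lower and 48.5% were called in either direction. Because the filter lets in genes that are high only in leukocyte classes, the shared direction of the 5 is in part set by it. Slc11a1 had a log2 fold change of -4.70 ± 0.64 (SE; adjusted p = 3.8e-05) and Hmox1 of -2.47 ± 0.55 (adjusted p = 0.0021). Blvrb was at -1.33 ± 0.30 (adjusted p = 0.0022) and Ftl1 at -1.22 ± 0.19 (adjusted p = 0.00011). Fth1 showed the smallest difference, -0.75 ± 0.23 (adjusted p = 0.015). The median of the 5 was -1.33, and that of all genes tested 0.04. Without the library as a block Fth1 was not called (adjusted p = 0.22), and the other 4 were, where 21.5% of genes were called lower. Each was lower in both libraries.

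All 5 rarer genes enter together only when no filter is used (16361 genes, 10.5% called lower and 8.19% higher). Of the 10 genes, 6 were then called lower and 0 higher. In that fit Slc40a1 had a log2 fold change of -4.46 ± 0.98 (adjusted p = 7.3e-05), which rests on replicate 2, since replicate 1 had 4 and 1 UMIs. Ncoa4 was at -1.15 ± 0.46 (adjusted p = 0.060) and Tfrc at 1.11 ± 0.52 (adjusted p = 0.13). Slc11a2 (-0.33 ± 0.51) and Ireb2 (-0.29 ± 0.50) gave adjusted p-values of 0.74 and 0.76. These p-values miss the threshold and do not show that the levels are equal. With the filter kept, 9 of the 10 genes were tested when only these 2 classes were fitted. Of them 6 were called lower and 0 higher, where 18% of 9368 genes were lower and 13.5% higher. Strict C1q thresholds gave 6 of 8 lower, where 21.4% of 5400 genes were. At 1000 or more UMIs for each barcode 5 of 9 were lower, where 21.3% of 5960 genes were.

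The Ptprc-negative barcodes are not uniform. Those with at least 2 UMIs of Mgp, Col1a1, Col1a2, Col3a1 and Dcn together (356 and 557 barcodes) held 52.3 and 71.9 CPM of the 4 leukocyte genes, and the rest (344 and 440) held 926 and 564 CPM. Hmox1 was 10.5 and 31.9 CPM in the matrix-rich barcodes and 20.5 and 82.7 CPM in the rest, and Slc11a1 was 0.748 and 2.05 CPM against 8.54 and 9.32 CPM. In each library both genes and the leukocyte RNA were higher in the rest than in the matrix-rich barcodes. Between libraries the order differed, since in the rest leukocyte RNA was lower in replicate 2 and Hmox1 higher; the part of leukocyte RNA in these values was not tested. Without the matrix-rich barcodes Hmox1 was at -1.64 (adjusted p = 0.021) and Slc11a1 at -3.45 (adjusted p = 0.00044) against macrophages. All 5 genes were still called lower in that fit, where 25.2% of genes were.

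T cells held less ferritin RNA than macrophages. Ftl1 had a log2 fold change of -1.39 ± 0.20 (adjusted p = 0.00096), Fth1 of -1.22 ± 0.24 (adjusted p = 0.0092) and Blvrb of -1.77 ± 0.41 (adjusted p = 0.023). Of all genes 4.48% were called in either direction and 2.53% were called lower. Slc11a1 (-3.45 ± 1.06, adjusted p = 0.088) and Hmox1 (-0.73 ± 0.68, adjusted p = 0.64) did not pass. None of the 3 calls was made without the library as a block, where the smallest adjusted p of the 5 was that of Ftl1, 0.092, and 0.469% of genes were called lower.

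The T cell result also depends on the limit on C1q UMIs. The gate used leaves out barcodes with 5 or more C1q UMIs. When T cells were drawn from Cd3 UMIs alone they numbered 113 and 278, with a C1q level of 65.2% and 55.4% of that of macrophages. Fth1 was then at -0.33 ± 0.20 and Ftl1 at -0.41 ± 0.18. Of 6 genes tested 0 were called, where 0 of 4349 genes were called lower and 1.33% higher. At an unadjusted p under 0.05 there was 1 of the 6, beside 262 of all 4349 genes. How many of those barcodes hold 2 cells was not tested.

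In type 2 dendritic-like cells 1 of the 5 genes was called, Ftl1 at -0.95 ± 0.19 (adjusted p = 0.033), where 1.01% of genes were called lower. At an unadjusted p under 0.05 there were 4 of the 5, beside 330 of all 2769 genes. The median difference of all 5 was -0.95. Fth1 was at -0.72 ± 0.23 (adjusted p = 0.19) and Hmox1 at 1.0 ± 0.59 (adjusted p = 0.58). Without replicate 1, which held the barcode with 37 Hmox1 UMIs, the latter was 0.16. The Ftl1 call was lost without the block (adjusted p = 0.52, with 0.108% of genes called lower). Monocytes gave 0 calls among the 5 genes, where edgeR called 0.506% of genes lower and 0.361% higher. One of the 5, Blvrb at -1.05 ± 0.34, had an unadjusted p under 0.05 (adjusted p = 0.25), as had 224 of all 2769 genes. By DESeq2 0 were called and 2 had such an unadjusted p, beside 188 of all 2769 genes. Neutrophils could be tested only when drawn from S100a8 and S100a9 UMIs alone (27 and 51 barcodes, with a C1q level of 45.1% and 47.6% of that of macrophages). None of 6 genes was then called (0 at an unadjusted p under 0.05), where 0.368% of 4349 genes were, and Fth1 was at -0.01 ± 0.20.

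**Figure D3:**
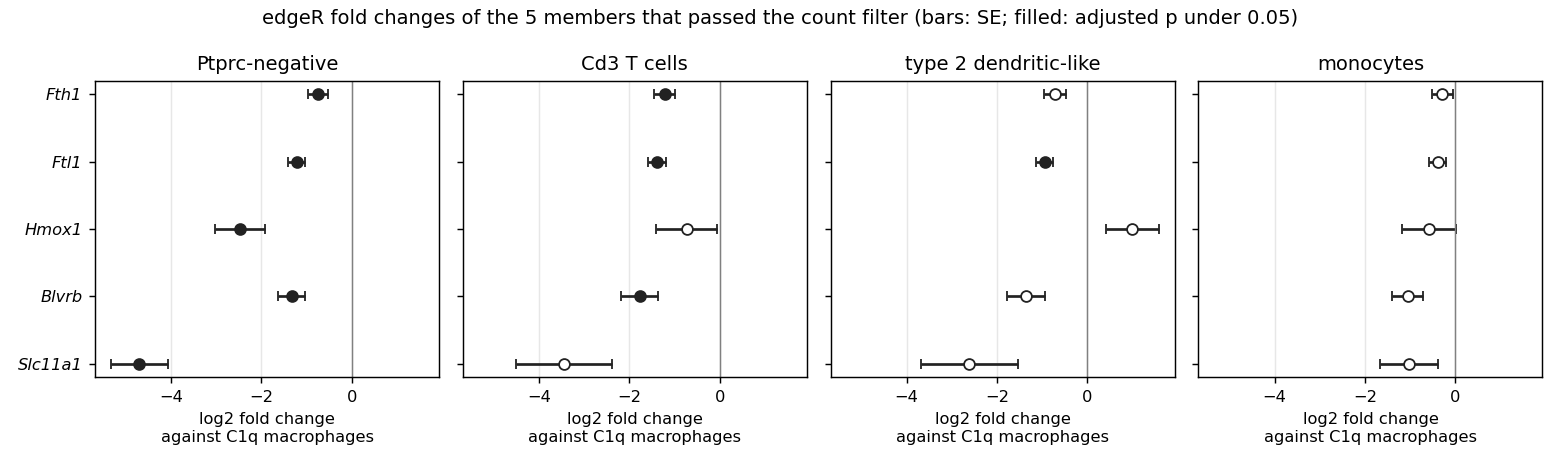
Log2 fold change against C1q macrophages (horizontal axis) of the 5 genes that passed the count filter, in 4 classes, with bars for the standard error and filled points for an adjusted p under 0.05. All 5 points are filled and below 0 for Ptprc-negative barcodes, 3 for T cells, 1 for type 2 dendritic-like cells and 0 for monocytes.

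Ptprc-negative barcodes were also split by dividing cells, taken as those with at least 1 UMI of Mki67 or Top2a. Cycling barcodes numbered 145 and 301 and had medians of 3188 and 3286 UMIs, and non-cycling barcodes numbered 555 and 696 with medians of 1504 and 1594. None of the 9 genes tested passed, where edgeR called 1.37% of 6855 genes lower and 0.569% higher. Of the 9, 2 had an unadjusted p under 0.05, beside 623 of all 6855 genes. DESeq2 also called 0, with 2 under it, beside 502 of all 6855 genes. Hmox1 came nearest, with 5 and 20 UMIs in cycling barcodes (7.42 and 15.4 CPM) and 21 and 113 in non-cycling ones (16.8 and 75.2 CPM). Its log2 fold change was -2.04 ± 0.59 (adjusted p = 0.079), lower in both libraries, and it was called when no filter was used (adjusted p = 0.0015, where 0.911% of genes were called lower). RNA of the 4 leukocyte genes moved the same way, at 59.3 and 69.9 CPM in cycling and 458 and 355 CPM in non-cycling barcodes, and its part in the Hmox1 difference was not tested.

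Ftl1 was at -0.66 ± 0.24 (adjusted p = 0.25) and Fth1 at -0.26 ± 0.28 (adjusted p = 1). The heavy-chain share of ferritin UMIs was 75.6% and 73.6% in cycling and 68.9% and 69.7% in non-cycling barcodes, and the exact binomial intervals of the sets did not overlap in either library. Tfrc, which dividing cells are known to use for iron uptake, stood at 20.8 and 39.9 CPM in cycling and 12 and 30.0 CPM in non-cycling barcodes. Its difference of 0.40 ± 0.44 had an adjusted p of 1. Within each library it was higher in cycling barcodes, but replicate 2 was above replicate 1 by more than the sets differed. A Tfrc UMI was found in 8.28% and 13.6% of cycling and 2.34% and 6.03% of non-cycling barcodes. After thinning every barcode to 800 UMIs the numbers were 0 of 140 and 8 of 294 cycling and 5 of 461 and 16 of 604 non-cycling barcodes, too few to read a difference from.

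How many barcodes held any UMI of a gene was compared after thinning each barcode to 800 UMIs and leaving out shallower ones, because depth differed between classes. Slc11a1 was then found in 5.32% and 10.4% of macrophages and 0.166% and 0.445% of Ptprc-negative barcodes; unthinned, it was in 11.7% and 18.3% against 0.857% and 1.20%, at median depths of 1416 and 1214.5 against 1709.5 and 2052 UMIs. Hmox1 was found in 8.46% and 10.9% of thinned macrophages and 1.33% and 3.67% of thinned Ptprc-negative barcodes. Unthinned, those shares were 16.8% and 15.1%, and 3.14% and 9.33%. For both genes the macrophage shares were above the others in each library with intervals that did not overlap. Blvrb was in 17.4% and 28.6% of thinned macrophages and 7.49% and 8.80% of thinned Ptprc-negative barcodes (unthinned, 31.3% and 39.5% against 19.1% and 23.7%).

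**Figure D4:**
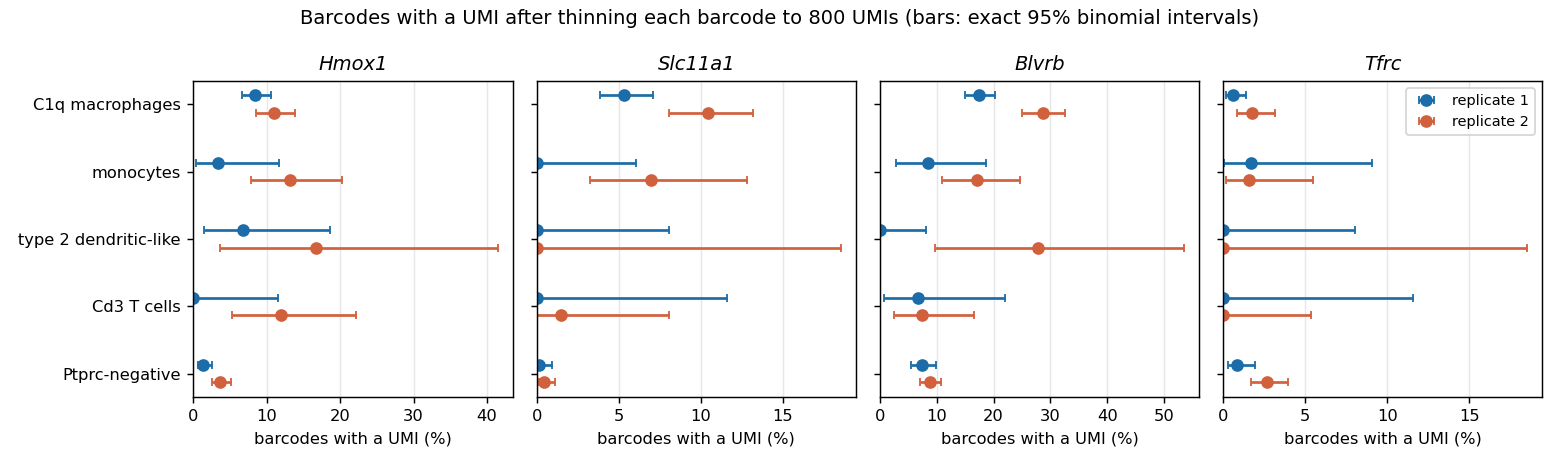
Percentage of barcodes with a UMI of Hmox1, Slc11a1, Blvrb and Tfrc after thinning to 800 UMIs, for 5 classes, with 1 point for each library and bars for exact 95% binomial intervals. Slc11a1 lies at 5.32% and 10.4% in macrophages and at 0.166% and 0.445% in Ptprc-negative barcodes.

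Levels differed between the libraries in the same direction for most of these genes. By CPM, macrophages of replicate 2 were above those of replicate 1 for all 10 genes, from 1.08 times for Tfrc to 17.5 times for Slc40a1. CPM leaves out the TMM scaling factors of the fits, which were 0.966 and 1.16 for macrophages of replicates 1 and 2. The direction of the ratios nearest to 1, those of Tfrc, Hmox1 and Ftl1 (1.17 times), therefore depends on the scaling. Of all 8035 genes with at least 20 UMIs in macrophages and some in each library, 65.9% were higher in replicate 2 by CPM. Their median log2 ratio was 0.23. Fth1 was 1.53 times higher there, and 2017 of 8035 genes (25.1%) had a larger ratio, so a shift of this size was common. The ratio of Fth1 was 1.64 in Ptprc-negative barcodes, 2.04 in monocytes and 2.61 in T cells. Under the same rule on UMIs, 42.4%, 40.4% and 36.1% of genes in those classes were more than 1.5 times higher in replicate 2. Blvrb was 1.83 times and Slc11a1 2.11 times higher in macrophages of replicate 2, with 13.8% and 8.36% of genes above them. Hmox1, at 1.12 times, was close to the same in both.

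Other genes of iron and heme handling were read from 7 lists with 71 genes, of which 16 passed the filter in the comparisons with macrophages. In Ptprc-negative barcodes 4 were lower and 4 higher, beside the shares of 27.4% and 21.1% over all genes. Of the lower ones, Trf, the transferrin gene, was at -4.70 ± 0.51 (adjusted p = 5.3e-06), from 162 and 131 CPM in macrophages to 7.28 and 2.85 CPM. Hp, haptoglobin, which binds free hemoglobin, was at -2.82 (adjusted p = 0.0097). It rests on few UMIs, 22 and 19 in macrophages (11.0 and 19.6 CPM) and 1 and 8 in Ptprc-negative barcodes. Monocytes held more, 116 and 87.9 CPM. Hmox2, the constitutive heme oxygenase, was at -1.21 (adjusted p = 0.0079), and Nfe2l2, the regulator of antioxidant genes that also drives Hmox1, at -1.10 (adjusted p = 0.019). Hmox2 stood at 29.1 and 25.3 CPM in Ptprc-negative barcodes, against 79.5 and 64.0 CPM in macrophages. Like Hmox1, the genes Trf, Hp and Hmox2 passed the filter through leukocyte classes, so their direction is in part set by it.

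The higher ones were Glrx5 (1.46, adjusted p = 0.0018) and Ciao2b (0.79, adjusted p = 0.041), which act in the making of iron-sulfur clusters, Gpx4 (1.35, adjusted p = 0.0018), which reduces lipid peroxides, and Pcbp2 (0.74, adjusted p = 0.030), a chaperone that hands iron to ferritin. By list, 2 of the 3 iron-sulfur genes tested were higher and 0 lower, with a median of 0.79. Over all 13 genes of that list the median was 0.34 with no filter (2 higher, 0 lower). Of all genes 8.19% were higher and 10.5% lower in that fit. When only these 2 classes were fitted the median was 0.31 (3 higher, 1 lower), beside 13.5% higher and 18% lower over all genes. One of 5 antioxidant genes was higher and 1 lower, and 1 of 3 genes of uptake and systemic iron was higher and 1 lower. The heme uptake list had 1 of 2 lower, heme breakdown 1 of 1 lower and iron sensing 0 of 2 called. None of the 9 heme synthesis genes passed the filter in the fit of all 5 classes. With no filter, and again when only these 2 classes were fitted, 2 of 3 heme breakdown genes were lower. In the same fits 1 of 8 heme synthesis genes was lower, and 0 genes of either list were higher. In T cells, monocytes and type 2 dendritic-like cells edgeR called 0 of the 16, and DESeq2 called 1, 1 and 0. By edgeR 4, 3 and 2 of them had an unadjusted p under 0.05, beside 506, 224 and 330 of all 2769 genes. Between cycling and non-cycling barcodes both tools called 0 of 48. Each had 1 of them at an unadjusted p under 0.05, beside 623 (edgeR) and 502 (DESeq2) of all 6855 genes.

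The genes whose levels ran most like each of the 5 over the 10 class sums were read as a description, over 4658 genes with a mean of at least 20 CPM. Slc11a1 ran most like Blvrb, and Blvrb most like Slc11a1 (Pearson's r of 0.956 on log2 CPM with 1 added). Mmp13 came second for both (0.896 and 0.938). Slc11a1 had 0 UMIs in monocytes, T cells and type 2 dendritic-like cells of replicate 1, so its r rests in part on sums at the floor. Fth1 ran most like Mapkapk2 (0.933), Ftl1 most like Ints6 (0.935) and Hmox1 most like Snx18 (0.970). The 10 sums share 2 libraries and differ widely in depth, so these values carry no test.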

How the data were processed

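Single-cell RNA of 2 replicate libraries was analysed from raw UMI counts per gene and barcode, as deposited by the authors; whole numbers up to 1782 and 551 show no scaling. Software and assembly are given as Cell Ranger 6.0.1, then Seurat 4.0.1, and mm10, per the submitters' processing notes, with no role or parameter. Barcodes with at least 300 genes and under 10% mitochondrial UMIs were kept, and Scrublet (scanpy 1.11.5) removed 10 and 36 doublets. Classes were set by marker UMIs (C1q macrophages at 5 or more C1q UMIs and no Cd3 UMI, T cells at 2 or more Cd3 UMIs), so they are rebuilt here and not the authors'. Counts were summed by class and library and tested across all genes with edgeR 4.0.16 (R 4.3.3), by its quasi-likelihood test with TMM scaling, filterByExpr, Benjamini-Hochberg adjustment and a threshold of 0.05. The library was a block, because all classes come out of the same 2 libraries and are paired by them. DESeq2 1.42.0 was an alternative. Scripts were tested on simulated data. Intervals are exact 95% Poisson or binomial ones; a count of 0 is read as allowing 3 UMIs, and both cover counting error only.

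The 10 genes and the other iron and heme lists were chosen with earlier results of these data known. All 10 genes are described; a gene of another list is named only where it was called, with at most 4 for each list and comparison by smallest adjusted p. Neutrophils and the first macrophage states had under 20 barcodes in a library and were tested only with gates added after seeing the data. One listed gene of 71 was not matched by symbol. Gene coordinates and stem-loops come from GENCODE M21 on GRCm38.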

Additional observations from a re-analysis of the deposited data

Results flagged for a closer look

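All 10 genes also had UMIs in the barcodes that met no class gate or 2 of them, which no comparison used. Both libraries together held 17542 UMIs of Fth1 there and 8316 of Ftl1, which is 4960 and 8567 CPM of Fth1 and 2879 and 3680 CPM of Ftl1 in replicates 1 and 2. Hmox1 had 298 UMIs, Blvrb 598 and Slc11a1 214. Ncoa4 had 93, Tfrc 47, Ireb2 47, Slc11a2 25 and Slc40a1 16. Each total lies above the 3 UMIs that a count of 0 allows. Of the 16 Slc40a1 UMIs, 14 were in replicate 2, the library whose macrophages held most of this RNA. Which cells these barcodes hold was not tested.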

How the results depend on the processing

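All 5 genes tested in Ptprc-negative barcodes stayed lower than in macrophages under every alternative run, and all 5 were called except Fth1 with no replicate block (adjusted p = 0.22). The 3 calls in T cells fell to 0 with no replicate block and to 0 with gates drawn from Cd3 UMIs first. The 1 call in type 2 dendritic-like cells became 0 with no replicate block. With no filter on low counts 2 of 10 genes were called there, where 0.501% of all genes were called lower. When only the 2 classes compared were fitted, 3 of 8 were called, where 1.95% were called lower. That kind of fit also called 1 of 8 for monocytes (1.03% of all genes lower) and 3 of 8 for cycling barcodes (3.64% lower). For cycling barcodes no filter gave 1 of 10, where 0.911% of genes were called lower. Fits of 2 classes rest on 4 sums. The causes were not tested.

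Of single values, Hmox1 in T cells was 0.174 without replicate 1 and at most -1.62 without replicate 2, where its 0 UMIs were set to their limit of 3. In cycling barcodes Slc11a1 was 0.1476 at 1000 or more UMIs for each barcode, and Ireb2 ranged from -0.4904 to 0.2694 without either replicate. The heavy-chain share in Ptprc-negative barcodes was 71.42% with strict C1q thresholds and 71.43% with a macrophage profile subtracted. The shares of macrophages with Hmox1 and Slc11a1 were 9.702% and 7.87% after thinning to 800 UMIs, and 7.368% and 4.62% after thinning to 500.

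Numbers of genes called moved by over 1.5 times, and the numbers tested differed too. For Ptprc-negative barcodes 1343 of 2769 tested (48.5%) became 871 (31.5%) with no replicate block, 3050 of 16361 (18.6%) with no filter, 2951 of 9368 (31.5%) with 2 classes, 2143 of 4349 (49.3%) with the other gates and 2169 of 5960 (36.4%) at 1000 or more UMIs. T cells went from 124 to 34, 255, 318 and 58, monocytes from 24 to 4, 65, 100 and 42, type 2 dendritic-like cells from 35 to 3, 97, 143 and 59 in that order. Cycling barcodes went from 133 to 4, 206 and 531, and to 76 with DESeq2, 70 with strict C1q thresholds and 47 at 1000 or more UMIs. With no scaling factors the median of all genes in Ptprc-negative barcodes moved from 0.04 to -0.13 and that of the 5 genes from -1.33 to -1.50. Fits with strict C1q gates or 1000 UMIs were not run for type 2 dendritic-like cells, which had under 20 barcodes there. The low UMI numbers of Slc40a1, Tfrc, Slc11a2, Ireb2 and Ncoa4 limit what can be detected outside macrophages and Ptprc-negative barcodes.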
